A study of Mus musculus with 16 samples.

Results

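Described here are 40 mouse genes that mark macrophages and other myeloid cells, chosen by their symbols in the platform annotation. The choice was made with earlier results of these data known, so counts and medians over the list are descriptions. They comprise 11 markers of resident cardiac macrophages, 9 markers of monocyte-derived or recruited macrophages and 20 pan-myeloid genes. Of the 40, 39 were measured among 17097 genes in all. Spp1, which encodes osteopontin, had no probe set under its own symbol in the annotation used, and so 8 monocyte-derived genes remain. Ventricular cardiomyocyte preparations came from 4 female GPER KO mice (animals 417, 419, 426 and 427), 4 female intact mice (418, 421, 422 and 425), 4 male GPER KO mice (431, 432, 444 and 451) and 4 male intact mice (430, 433, 452 and 453). The intact mice are labelled wild type, all mice are labelled as 15 weeks old, and the methods of the study give a somewhat older age. GPER is the G protein-coupled estrogen receptor, its deletion is described as confined to cardiomyocytes, and the promoter that drives the recombinase is not given in the sources used here. Each array is taken to carry RNA of 1 mouse, from the number in its title, and values are given in the order of the animals above.

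Macrophages are the main immune cells of the healthy heart. Resident cardiac macrophages are seeded before birth, renew themselves in place, and carry scavenger and phagocytic receptors such as LYVE1, TIMD4, FOLR2 and CD163. Monocyte-derived macrophages enter from the blood, and after injury many of them take on a program with TREM2, GPNMB and osteopontin. Both kinds depend on the growth factor receptor CSF1R and on the transcription factor PU.1, the product of Spi1, and both hold lysosomal proteins such as CD68, cathepsin S and lysozyme. Heart cells released by collagenase and collected by low-speed spinning are enriched for myocytes, but other cells of the ventricle can be carried along. The cells here were not sorted.

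The deposited values are log2 values from robust multi-array average (RMA), so that a difference of 1 is a doubling, and array medians lay between 3.47 and 3.51. Any pair of arrays correlated between 0.983 and 0.997 across probe sets. Y-linked genes and Xist matched the labelled sex on all 16 arrays. Gper1 read 2.64 to 3.11 on its probe set over GPER KO and intact arrays, near the 2.24 to 3.06 of Y-linked genes in females. Little can therefore be read from its level, and whether that probe set lies in the deleted part is not known here. The 11 measured cardiomyocyte markers averaged 12.2 to 12.4 on every array. The Y-linked genes Eif2s3y, Kdm5d and Uty read 2.24 to 3.06 in females, and the members Timd4, Itgam and Aif1 had means below that upper value, so little can be read from their levels. Clec4d, Itgb2 and Ptprc had means of 3.06, 3.10 and 3.13, close to that value, as was the female intact mean of Cd68 (3.10). Females have the lower animal numbers and males the higher ones, and sex cannot be told apart from that ordering. No strip or scan batch is given in the sources used here.

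Most macrophage genes lay above intact in GPER KO preparations of both sexes. In males Lyz2, Ctss, Mpeg1, Tyrobp, Fcgr3, Cd68 and Ly86, all of them pan-myeloid genes, rose, and no member fell. In females no member passed the test, although 33 of 39 lay above intact. With both sexes averaged, Lyz2, Ctss, Mpeg1, Tyrobp, Cd68 and the complement gene C1qc rose. These are bulk preparations, and more macrophages cannot be told apart from more RNA of these genes in each macrophage.

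Counts come from limma, fitted on 4 group means over all genes, and a gene is called at a Benjamini-Hochberg adjusted p under 0.05. In males 7 of 39 members were called higher and 0 lower, where 0.509% of all genes were called higher, 0.111% lower and 0.62% in either direction. Of the 39, 35 were above intact in males (56.5% of all genes were) and 27 were higher and 0 lower at an unadjusted p under 0.05 (7.05% and 3.06% of all genes). The median log2 fold change of the members was 0.34 in males, beside 0.01 over all genes. In females 0 of 39 were called (0.123% of all genes were called higher, 0.158% lower and 0.281% in either direction), the smallest adjusted p was 0.107 for Mpeg1, and 6 were higher and 0 lower at an unadjusted p under 0.05 (5.05% and 7.53% of all genes). The female median was 0.11, beside -0.02 over all genes, of which 41.2% lay above intact. With both sexes averaged 6 members were called higher and 0 lower (0.825% and 0.538% of all genes, 1.36% in either direction). Of the 39, 37 lay above intact over both sexes (49.1% of all genes), 25 were higher and 0 lower at an unadjusted p under 0.05 (5.9% and 5.77%), and the median was 0.24.

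The number of male calls depends on single arrays. It was 1 without GPER KO 431, intact 430 or intact 452, where Mpeg1 alone was called, and also 1 with the male arrays fitted alone. It was 2, Cd68 and Mpeg1, without GPER KO 432, GPER KO 444 or intact 433, and it was 10 without GPER KO 451 and 12 without intact 453. Without male GPER KO 451, which enters the female comparison only through the shared spread, Lyz2 (adjusted p = 0.0269, limma) and Mpeg1 (adjusted p = 0.0148) were called in females. Over both sexes the count was 14 without male GPER KO 451 and 12 without male intact 453.

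**Figure D1:**
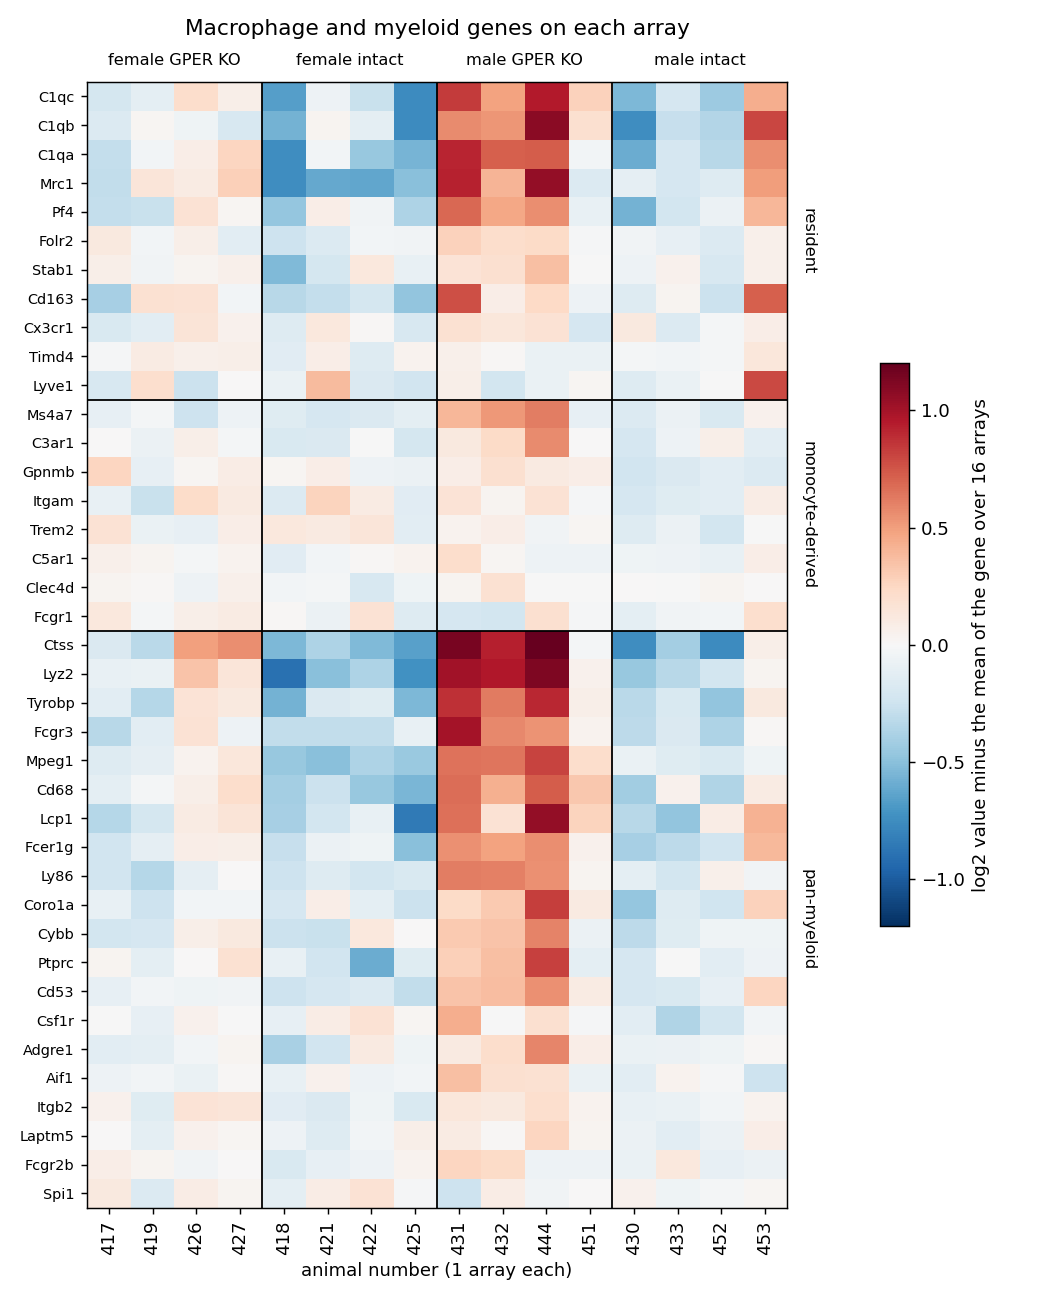
Log2 value of each of the 39 measured members on each array, minus the mean of that gene over 16 arrays. Columns are animals grouped by sex and genotype, rows are genes grouped as resident, monocyte-derived and pan-myeloid, red is above the mean and blue below it. Male GPER KO 431, 432 and 444 are red for most members, while male GPER KO 451 is nearer the mean and male intact 453 is red for C1qa, C1qb, C1qc, Cd163 and Lyve1.

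Transcripts of Lyz2, Ctss and Cd68, which encode lysosomal proteins of phagocytes, rose in male GPER KO. Lyz2 encodes the lysozyme of macrophages and neutrophils, and its log2 values were 8.83, 8.77, 8.94 and 7.87 in male GPER KO and 7.36, 7.48, 7.60 and 7.85 in male intact mice. In females they were 7.73, 7.74, 8.16 and 7.97 in GPER KO and 6.92, 7.32, 7.45 and 7.09 in intact mice. Groups did not overlap in either sex, though male GPER KO 451 lay only just above male intact 453. In males the log2 difference was 1.03 (standard error 0.19, adjusted p = 0.0210, limma), or 2.04-fold, and in females 0.71 (adjusted p = 0.173). The only Lyz2 probe set is of the type that can hybridise to related sequences, so related lysozyme transcripts may add to it.

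Ctss encodes cathepsin S, a cysteine protease that processes antigen in endosomes. It read 6.71, 6.50, 6.90 and 5.55 in male GPER KO and 4.82, 5.16, 4.81 and 5.64 in male intact mice, so that only GPER KO 451 fell among the intact arrays. In females the values were 5.39, 5.24, 6.06 and 6.12 in GPER KO and 5.03, 5.20, 5.03 and 4.91 in intact mice, with no overlap. Its male difference of 1.30 (log2, standard error 0.26, adjusted p = 0.0320, limma), or 2.47-fold, was the largest among the members, and the female value was 0.66 (adjusted p = 0.324). Cd68, a glycoprotein of macrophage lysosomes, read 4.20, 3.95, 4.25 and 3.85 in male GPER KO and 3.11, 3.58, 3.16 and 3.62 in male intact mice. It read 3.41, 3.49, 3.59 and 3.73 in female GPER KO and 3.12, 3.26, 3.07 and 2.97 in female intact mice. Neither sex showed an overlap, and the log2 fold change was 0.70 in males (standard error 0.12, adjusted p = 0.0124, limma) and 0.45 in females (adjusted p = 0.166).

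Mpeg1 encodes perforin-2, a pore-forming protein that macrophages use against ingested bacteria. Its values were 5.46, 5.44, 5.61 and 5.01 in male GPER KO and 4.72, 4.65, 4.62 and 4.75 in male intact mice. Those of females were 4.65, 4.70, 4.85 and 4.94 in GPER KO and 4.35, 4.30, 4.43 and 4.36 in intact mice. In both sexes the lowest GPER KO array was above the highest intact array, and the spread within the intact groups was small (SD 0.06 in each sex, n = 4). Mpeg1 differed by 0.70 in males (log2, standard error 0.10, adjusted p = 0.00271, limma) and 0.42 in females (adjusted p = 0.107). Over the average of both sexes Mpeg1 had 0.56 (adjusted p = 0.000456), Lyz2 0.87 (adjusted p = 0.00295), Cd68 0.57 (adjusted p = 0.00219) and Ctss 0.98 (adjusted p = 0.0120), and limma called these 4 in all 25 alternative settings.

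The adaptor gene Tyrobp and the Fc receptor gene Fcgr3 also rose in male GPER KO. Tyrobp encodes DAP12, the adaptor that carries signals of TREM2 and related receptors, and it read 5.61, 5.36, 5.64 and 4.80 in male GPER KO and 4.41, 4.55, 4.26 and 4.85 in male intact mice. In females it read 4.61, 4.39, 4.90 and 4.85 in GPER KO and 4.16, 4.55, 4.59 and 4.19 in intact mice, and groups overlapped in both sexes. Tyrobp differed by 0.83 in males (log2, standard error 0.18, adjusted p = 0.0414, limma), 0.31 in females (adjusted p = 0.491) and 0.57 over both (adjusted p = 0.0301). Fcgr3, a low-affinity receptor for immunoglobulin G, read 4.77, 4.35, 4.31 and 3.81 in male GPER KO and 3.45, 3.59, 3.39 and 3.78 in male intact mice, which did not overlap. In females it read 3.43, 3.65, 3.94 and 3.71 in GPER KO and 3.48, 3.47, 3.47 and 3.68 in intact mice, which did. Its log2 fold change was 0.75 in males (standard error 0.15, adjusted p = 0.0323) and 0.16 in females (adjusted p = 0.726).

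Ly86 encodes MD-1, a secreted partner of the receptor RP105 that tempers responses to endotoxin. In male GPER KO it read 5.30, 5.30, 5.24 and 4.72, against 4.57, 4.47, 4.75 and 4.66 in male intact mice, and GPER KO 451 alone lay among the intact arrays. Female values were 4.46, 4.36, 4.58 and 4.70 in GPER KO and 4.45, 4.54, 4.47 and 4.52 in intact mice, and these overlapped. Ly86 differed by 0.53 in males (log2, standard error 0.11, adjusted p = 0.0383, limma) and 0.03 in females (adjusted p = 0.941). Over 25 alternative settings limma called Mpeg1 in males in all 25, Cd68 in 21, Fcgr3 and Lyz2 in 18 each, Ctss in 17, and Ly86 and Tyrobp in 13 each. Settings that leave out a female array reach the male comparison only through the shared spread. With a male array left out, Lyz2, Ctss, Fcgr3 and Tyrobp were called only without GPER KO 451 or intact 453. Ly86 was then called only without GPER KO 451.

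**Figure D2:**
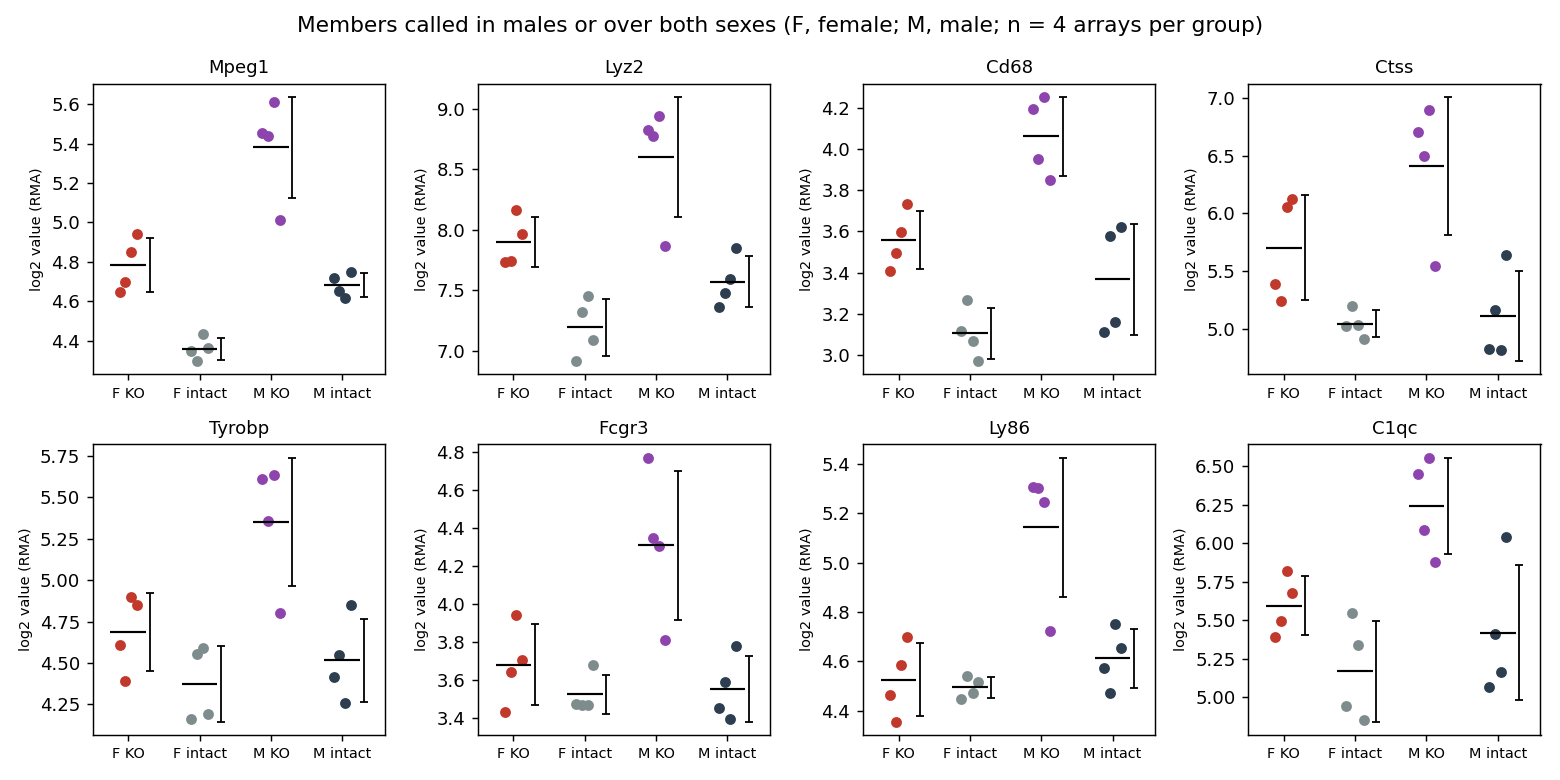
Log2 value (vertical axis) of the 8 members called in males or over both sexes, on each array of female and male GPER KO and intact mice. Points are arrays, horizontal lines group means and bars 1 SD (n = 4). In males Mpeg1, Lyz2, Cd68 and Fcgr3 show no overlap between GPER KO and intact, and the lowest male GPER KO point in each panel is animal 451.

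Promoter windows of all called members that have one in the RefSeq table are shown here. PU.1, the factor that sets up the macrophage lineage, binds purine-rich sites with the core GAGGAA. The genes shown were picked by their calls, all of them higher in GPER KO. Whether PU.1 acts on them in these preparations was not tested. The windows run from 250 bases before to 50 after the annotated start, from RefSeq on GRCm38.p6, and are written 5′ to 3′ on the strand of the gene. Capitals mark GAGGAA and its reverse complement TTCCTC. Fcgr3 has 2 overlapping windows, of which 1 is shown.
Ctss, chr3:95526536-95526835, plus strand: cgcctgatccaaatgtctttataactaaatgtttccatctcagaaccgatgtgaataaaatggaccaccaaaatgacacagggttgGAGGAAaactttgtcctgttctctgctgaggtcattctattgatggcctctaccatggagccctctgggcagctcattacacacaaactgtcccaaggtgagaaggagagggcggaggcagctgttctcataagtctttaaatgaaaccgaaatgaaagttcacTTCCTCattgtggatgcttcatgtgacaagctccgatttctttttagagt
Cd68, chr11:69666121-69666420, minus strand: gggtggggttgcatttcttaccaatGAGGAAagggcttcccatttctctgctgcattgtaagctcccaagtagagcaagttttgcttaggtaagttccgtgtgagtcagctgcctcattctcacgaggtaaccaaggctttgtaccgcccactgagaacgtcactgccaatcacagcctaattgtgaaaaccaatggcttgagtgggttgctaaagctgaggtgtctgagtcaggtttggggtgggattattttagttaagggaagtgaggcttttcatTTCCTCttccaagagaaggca
Fcgr3, chr1:171059354-171059653, minus strand: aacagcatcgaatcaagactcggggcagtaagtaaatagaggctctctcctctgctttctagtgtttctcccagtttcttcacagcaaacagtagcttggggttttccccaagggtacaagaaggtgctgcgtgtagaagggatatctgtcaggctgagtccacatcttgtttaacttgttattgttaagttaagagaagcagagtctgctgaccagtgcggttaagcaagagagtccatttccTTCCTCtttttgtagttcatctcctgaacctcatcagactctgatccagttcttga
C1qc, chr4:136892865-136893164, minus strand: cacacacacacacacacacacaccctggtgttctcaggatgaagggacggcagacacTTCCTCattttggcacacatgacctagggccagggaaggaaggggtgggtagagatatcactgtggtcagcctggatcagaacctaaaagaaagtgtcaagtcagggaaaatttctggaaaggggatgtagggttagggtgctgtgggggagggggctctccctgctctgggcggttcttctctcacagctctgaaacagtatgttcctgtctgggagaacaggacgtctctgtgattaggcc
Lyz2, chr10:117282223-117282522, minus strand: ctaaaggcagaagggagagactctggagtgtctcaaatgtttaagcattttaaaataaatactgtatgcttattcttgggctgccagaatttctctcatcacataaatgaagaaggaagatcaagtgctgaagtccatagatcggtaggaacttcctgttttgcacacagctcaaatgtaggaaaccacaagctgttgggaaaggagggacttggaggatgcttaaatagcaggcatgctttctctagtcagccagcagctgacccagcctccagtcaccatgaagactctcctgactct
Mpeg1, chr19:12460520-12460819, plus strand: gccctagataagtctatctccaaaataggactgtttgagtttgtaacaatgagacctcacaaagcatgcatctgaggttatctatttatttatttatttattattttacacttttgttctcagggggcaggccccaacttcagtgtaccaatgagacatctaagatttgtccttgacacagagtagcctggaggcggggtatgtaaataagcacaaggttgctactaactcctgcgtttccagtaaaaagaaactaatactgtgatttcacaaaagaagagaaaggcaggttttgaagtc
Ly86, chr13:37345095-37345394, plus strand: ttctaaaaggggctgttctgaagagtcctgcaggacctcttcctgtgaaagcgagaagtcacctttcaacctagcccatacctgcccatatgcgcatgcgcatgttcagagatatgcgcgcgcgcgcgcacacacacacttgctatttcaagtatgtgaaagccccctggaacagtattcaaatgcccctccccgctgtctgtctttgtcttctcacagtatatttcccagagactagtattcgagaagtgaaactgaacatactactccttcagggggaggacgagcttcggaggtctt

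Ctss had 1 core on each strand, Cd68 1 on each strand, Fcgr3 and C1qc 1 each on the reverse strand, and Lyz2, Mpeg1 and Ly86 none, so that 4 of the 7 windows shown held the core. The longer match GAGGAAGT, which contains GAGGAA, was found in the windows of Ctss and C1qc, again counting both strands. Of 40 members 33 had a window in the RefSeq table, and 19 of the 33 (57.6%) held GAGGAA, where 31.3% of 27025 genes and 28.3% of 32851 windows did. GAGGAAGT was present for 5 of the 33 (15.2%), namely C1qc, Cd53, Ctss, Pf4 and Spp1, beside 3.69% of all genes. Adgre1, C1qa, Csf1r, Itgb2, Lyve1, Spi1 and Tyrobp were not in the table. A match of letters is a description of the window and not a binding site. Spi1 itself had a log2 fold change of -0.05 in males and -0.02 in females, with its readings between 3.11 and 3.53 on all arrays.

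Of the other 13 pan-myeloid genes, 12 were above intact in males (56.5% of all genes). Of these 13, 11 were higher at an unadjusted p under 0.05 (7.05% of all genes), but none was called. Csf1r, the receptor for macrophage growth factors, read 5.85, 5.41, 5.61 and 5.40 in male GPER KO and 5.29, 5.06, 5.20 and 5.39 in male intact mice. It read 5.41, 5.31, 5.47 and 5.41 in female GPER KO and 5.32, 5.51, 5.59 and 5.44 in female intact mice. Male groups stood apart by a narrow margin and female groups overlapped, with log2 fold changes of 0.34 (adjusted p = 0.146, limma) and -0.06 (adjusted p = 0.838). Adgre1, which encodes the macrophage antigen F4/80, read 4.41, 4.51, 4.88 and 4.38 in male GPER KO and 4.21, 4.23, 4.24 and 4.31 in male intact mice. In females it read 4.17, 4.18, 4.27 and 4.33 in GPER KO and 3.90, 4.06, 4.40 and 4.24 in intact mice. Again only the male groups did not overlap, and the values were 0.29 in males (adjusted p = 0.311) and 0.09 in females (adjusted p = 0.792).

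Ptprc encodes CD45, the phosphatase carried by all leukocytes. Its readings were 3.41, 3.49, 3.95 and 3.02 in male GPER KO and 2.93, 3.12, 3.0 and 3.07 in male intact mice. Those in females were 3.17, 3.01, 3.14 and 3.31 in GPER KO and 3.04, 2.90, 2.53 and 2.99 in intact mice, and groups overlapped in both sexes. Its difference was 0.44 in males (log2, adjusted p = 0.263, limma) and 0.29 in females (adjusted p = 0.432). Every female intact Ptprc reading lay under 3.06, the upper value of the Y-linked genes in females. Among the rest, Lcp1 (L-plastin, an actin-bundling protein of leukocytes) had 0.61 in males, Fcer1g (the common gamma chain of Fc receptors) 0.55, Coro1a (coronin 1A, an actin regulator) 0.51, Cybb (the catalytic subunit of the phagocyte oxidase) 0.44 and Cd53 (a tetraspanin) 0.39. In the same genes the female values were 0.31 for Lcp1, 0.17 for Fcer1g, 0.03 for Coro1a, 0.04 for Cybb and 0.17 for Cd53. Itgb2, the beta chain of leukocyte integrins, had 0.16 in males and 0.19 in females. Aif1, which encodes IBA1, had 0.25 in males and -0.01 in females, and Laptm5, a lysosomal membrane protein, 0.15 in males and 0.03 in females.

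Most resident markers lay above intact in both sexes, among them the complement genes, Mrc1, Folr2 and Cd163. Only Lyve1 and Timd4, which mark self-renewing resident macrophages, lay below intact in males, with log2 fold changes of -0.19 and -0.04. With 1 array left out these male values reached up to 0.026 for Lyve1 and 0.0043 for Timd4. Timd4 also read within the range of the Y-linked genes in females, so neither gene shows a fall. Of 11 resident genes 9 were above intact in males and 10 in females (56.5% and 41.2% of all genes). At an unadjusted p under 0.05, 6 were higher in males and 1 in females (7.05% and 5.05% of all genes), and 0 were called in either sex. The class median was 0.24 in males and 0.21 in females, and the pan-myeloid medians were 0.47 and 0.16.

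C1qc is 1 of 3 chains of C1q, the recognition part of the classical complement pathway, which macrophages make in tissue. It read 6.45, 6.09, 6.55 and 5.88 in male GPER KO and 5.06, 5.41, 5.17 and 6.04 in male intact mice. Female values were 5.39, 5.49, 5.82 and 5.68 in GPER KO and 4.95, 5.55, 5.34 and 4.85 in intact mice, and 1 intact array reached into the GPER KO range in each sex. Over both sexes the difference was 0.62 (log2, standard error 0.15, adjusted p = 0.0431, limma), with 0.82 in males (adjusted p = 0.0957) and 0.43 in females (adjusted p = 0.403). The call over both sexes was made in 10 of 25 alternative settings, and the adjusted p ranged from 0.00667 without male intact 453 to 0.101 without female GPER KO 426. C1qa and C1qb, the other chains, had 0.73 each in males and 0.45 and 0.26 in females. Mrc1, the mannose receptor CD206, had 0.55 in males and 0.68 in females (adjusted p = 0.222), where its groups did not overlap.

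Lyve1 encodes a hyaluronan receptor found on resident macrophages and on lymphatic endothelium. It read 4.08, 3.80, 3.93 and 4.04 in male GPER KO and 3.86, 3.94, 4.01 and 4.81 in male intact mice. In females it read 3.82, 4.22, 3.76 and 4.02 in GPER KO and 3.94, 4.39, 3.84 and 3.79 in intact mice. Groups overlapped in both sexes, and male intact 453 stood far above the others. Lyve1 differed by -0.19 in males (GPER KO minus intact, log2, adjusted p = 0.799, limma) and -0.04 in females (adjusted p = 0.955), and without intact 453 the male value was 0.03. Timd4, a receptor for phosphatidylserine on dying cells, read 2.46, 2.41, 2.32 and 2.32 in male GPER KO and 2.38, 2.37, 2.38 and 2.54 in male intact mice, and 2.38, 2.50, 2.46 and 2.48 in female GPER KO and 2.26, 2.48, 2.24 and 2.44 in female intact mice. No Timd4 reading exceeded the upper value of the Y-linked genes in females, and the log2 fold changes were -0.04 in males (adjusted p = 0.904) and 0.10 in females (adjusted p = 0.563).

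Folr2, a folate receptor of resident macrophages, read 4.67, 4.60, 4.62 and 4.38 in male GPER KO and 4.35, 4.29, 4.22 and 4.46 in male intact mice. It read 4.50, 4.36, 4.46 and 4.27 in female GPER KO and 4.15, 4.22, 4.36 and 4.35 in female intact mice. Male GPER KO arrays other than 451 were above every male intact array, and the log2 fold change was 0.24 in males (adjusted p = 0.240, limma) and 0.13 in females (adjusted p = 0.528). Cd163, the scavenger receptor for haemoglobin bound to haptoglobin, read 4.88, 4.19, 4.35 and 4.05 in male GPER KO and 3.95, 4.15, 3.86 and 4.83 in male intact mice. Female readings were 3.72, 4.29, 4.28 and 4.08 in GPER KO and 3.77, 3.82, 3.90 and 3.63 in intact mice. High and low arrays occurred in both male groups, and the values were 0.17 in males (adjusted p = 0.852; between 0.0015 without GPER KO 431 and 0.38 without intact 453) and 0.31 in females (adjusted p = 0.553). Pf4, a chemokine of platelets and of some resident macrophages, had 0.52 in males and 0.11 in females, Stab1, a scavenger receptor, 0.21 in each sex, and Cx3cr1, the fractalkine receptor, 0.07 in males and 0.02 in females.

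The monocyte-derived markers gave no call in either sex. In males Gpnmb was called in 4 of 25 alternative settings and Ms4a7 in 2. Of 8 genes 7 were above intact in males and 6 in females (56.5% and 41.2% of all genes), with class medians of 0.16 and 0.06. Gpnmb, a transmembrane glycoprotein of lipid-loaded macrophages, read 3.55, 3.66, 3.58 and 3.55 in male GPER KO and 3.24, 3.29, 3.34 and 3.30 in male intact mice, a clear separation with little spread. In females it read 3.72, 3.37, 3.48 and 3.55 in GPER KO and 3.49, 3.55, 3.40 and 3.40 in intact mice, which overlapped. Its log2 fold change was 0.29 in males (standard error 0.07, adjusted p = 0.0600, limma) and 0.07 in females (adjusted p = 0.707). A further Gpnmb probe set is shared with Wdr6 and was not used.

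Clec4d, a C-type lectin of monocytes and neutrophils, read 3.10, 3.24, 3.06 and 3.06 in male GPER KO and 3.07, 3.06, 3.10 and 3.07 in male intact mice. Female values were 3.10, 3.08, 3.0 and 3.12 in GPER KO and 3.03, 3.04, 2.87 and 3.02 in intact mice. All arrays lay close together, with log2 fold changes of 0.04 in males (adjusted p = 0.873, limma) and 0.09 in females (adjusted p = 0.553). Ms4a7, a membrane protein of mature macrophages, had 0.45 in males (adjusted p = 0.102) and 0.05 in females, and C3ar1, the receptor for the complement fragment C3a, 0.31 in males and 0.14 in females. Trem2, the lipid-sensing receptor that signals through DAP12, had 0.14 in males and -0.04 in females. Itgam, which encodes CD11b, had 0.19 in males and -0.03 in females. C5ar1, the receptor for C5a, had 0.06 in males and 0.05 in females, and Fcgr1, the high-affinity receptor for immunoglobulin G, -0.06 in males and 0.07 in females.

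**Figure D3:**
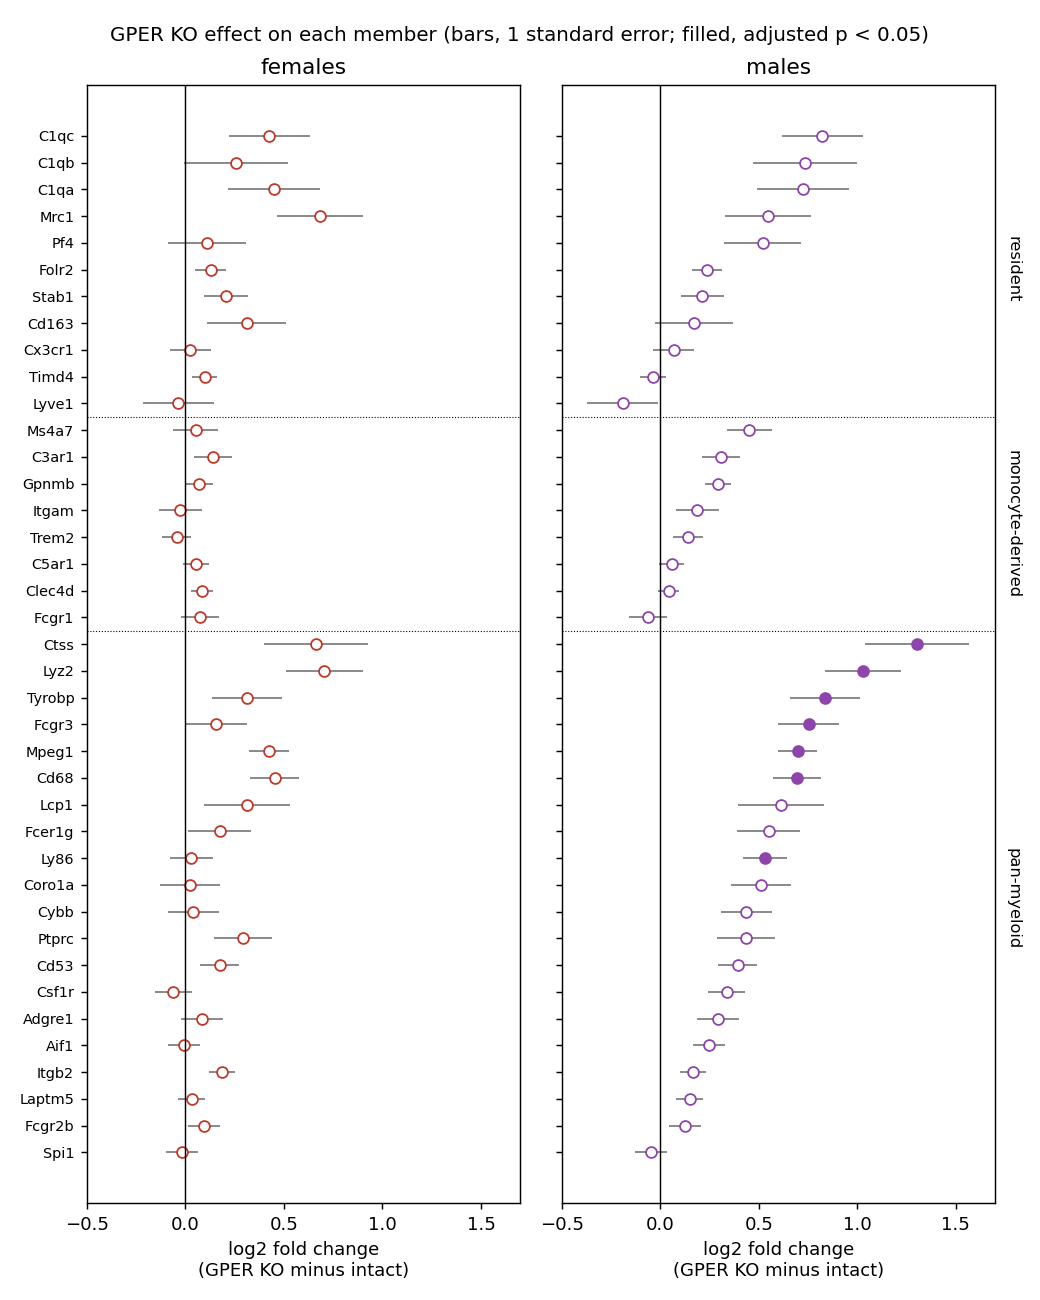
Log2 fold change (GPER KO minus intact, horizontal axis) of the 39 measured members in females (left) and males (right), with bars of 1 standard error from limma. Filled points have an adjusted p under 0.05. The 7 filled points are all pan-myeloid genes in males, Lyve1 and Timd4 lie near or below 0 in males, and the median in males is 0.16 for monocyte-derived and 0.47 for pan-myeloid genes.

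Members varied more among male GPER KO mice than in the other groups. The median SD of the members was 0.23 in male GPER KO and 0.13 in male intact mice, beside 0.10 and 0.09 over all genes, and 0.14 in female GPER KO and 0.12 in female intact mice. Male GPER KO 431, 432 and 444 were above all 4 male intact arrays for 33, 29 and 30 of the 39 members, and 451 for 9. Animal 444 had the highest of all 16 values for 20 members, and 431 for 11. Among male intact mice, 453 was above the other 3 for 29 members. In females GPER KO 417, 419, 426 and 427 were above all 4 intact arrays for 17, 10, 20 and 19 members. Female intact 418, 421, 422 and 425 were above the other 3 intact arrays for 1, 15, 17 and 6. To lie above 3 arrays is easier than above 4, so intact and GPER KO counts are not directly comparable. Shares over all genes were not computed for any of these counts.

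Groups failed to overlap for 8 members in males, all higher in GPER KO: Gpnmb, Lyz2, Csf1r, Mpeg1, Adgre1, Fcgr3, Cd68 and Itgb2 (4.24% of all genes, and 1.97% were lower). In females this held for 6, all higher in GPER KO: Mrc1, Lyz2, Ctss, Mpeg1, Cd68 and Cd53 (1.95% of all genes, and 3.73% were lower). Lyz2, Mpeg1 and Cd68 met it in both sexes (0.38% of all genes). An exact two-sided permutation test of 4 against 4 arrays always gives non-overlapping groups p = 0.0286, the smallest it can give. It therefore adds nothing to the lack of overlap. That p was reached by 6.21% of all genes in males and 5.69% in females.

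Averaged over the 20 pan-myeloid genes, the male GPER KO arrays read 4.88, 4.79, 4.99 and 4.46, and the male intact arrays 4.16, 4.24, 4.23 and 4.47. Thus 451 lay level with intact 453 and the other 3 GPER KO arrays were above every intact one. The female arrays read 4.30, 4.26, 4.48 and 4.49 in GPER KO and 4.11, 4.23, 4.25 and 4.14 in intact mice, which did not overlap. For the 11 resident genes the averages were 4.97 ± 0.24 in male GPER KO and 4.62 ± 0.31 in male intact mice, and 4.65 ± 0.11 in female GPER KO and 4.41 ± 0.17 in female intact mice (SD, n = 4 each). For the 8 monocyte-derived genes they were 3.67 ± 0.08 in male GPER KO and 3.5 ± 0.07 in male intact mice, and 3.58 ± 0.06 in female GPER KO and 3.53 ± 0.05 in female intact mice (SD, n = 4 each). These averages describe the chosen genes and were not tested.

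**Figure D4:**
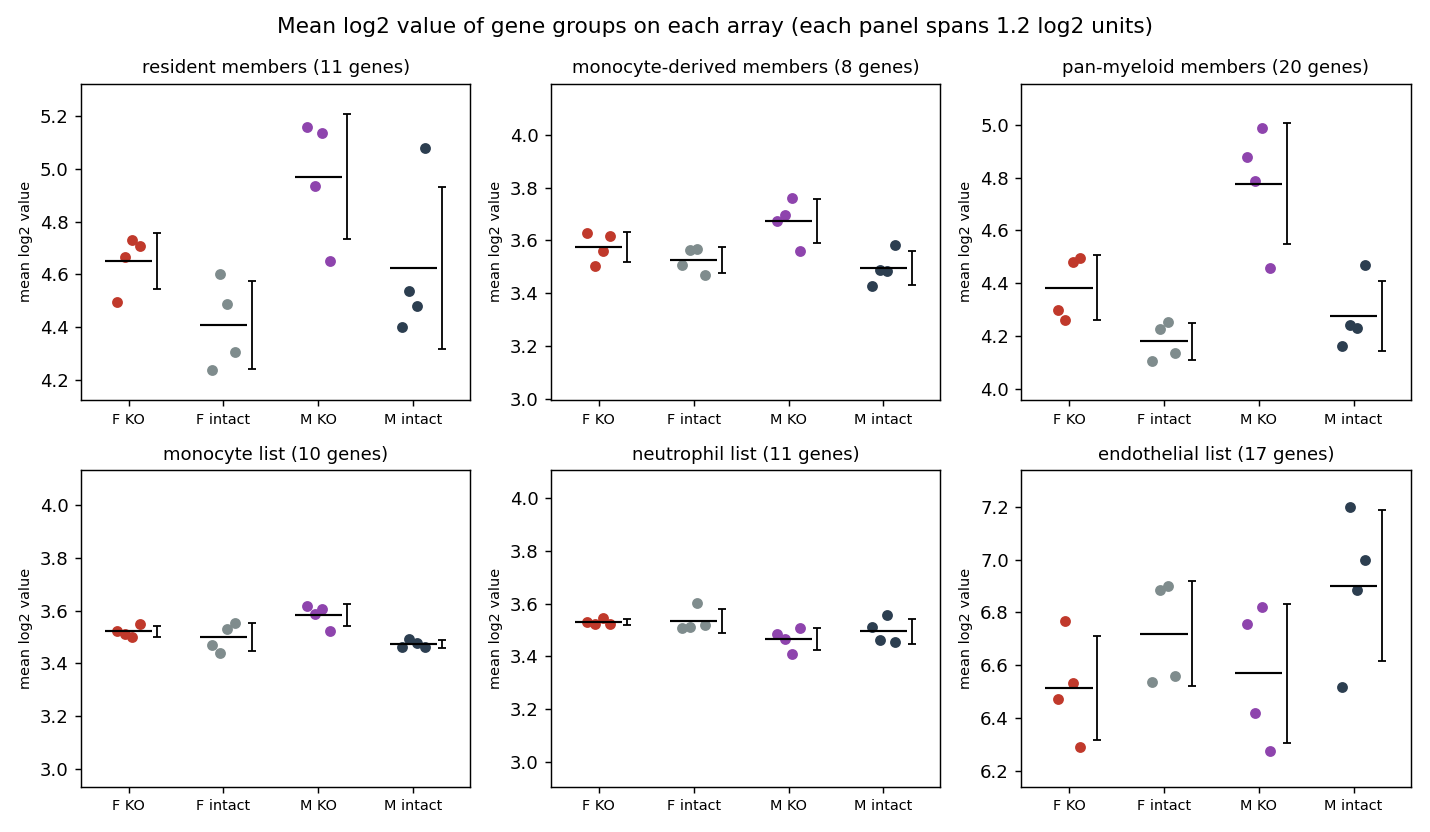
Mean log2 value (vertical axis) over the genes of each list on each array, for the 3 classes of members (top) and for monocyte, neutrophil and endothelial lists (bottom). Points are arrays, horizontal lines group means and bars 1 SD (n = 4), and each panel spans the same number of log2 units. Male GPER KO 431, 432 and 444 stand high in the resident and pan-myeloid panels and 451 does not, the monocyte and neutrophil panels differ little against that span, and endothelial means are lower in GPER KO.

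Fcgr2b, the inhibitory Fc receptor, gave different answers on its 4 probe sets. The probe set with the highest mean, which stood for the gene, had a log2 fold change of 0.12 in males and 0.09 in females. Probe set 1455332_PM_x_at had 0.16 in males and 0.08 in females. Probe set 1451941_PM_a_at had 0.58 in males (adjusted p = 0.0341, limma over all probe sets) and 0.28 in females, and 1435477_PM_s_at had 1.04 in males (adjusted p = 0.0744) and 0.47 in females. Over both sexes the last 2 had 0.43 (adjusted p = 0.0116) and 0.75 (adjusted p = 0.0367). Which transcripts each probe set reads is not given in the files. The members have 57 probe sets in all, with 26 members on 1 and 13 on several.

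**Figure D5:**
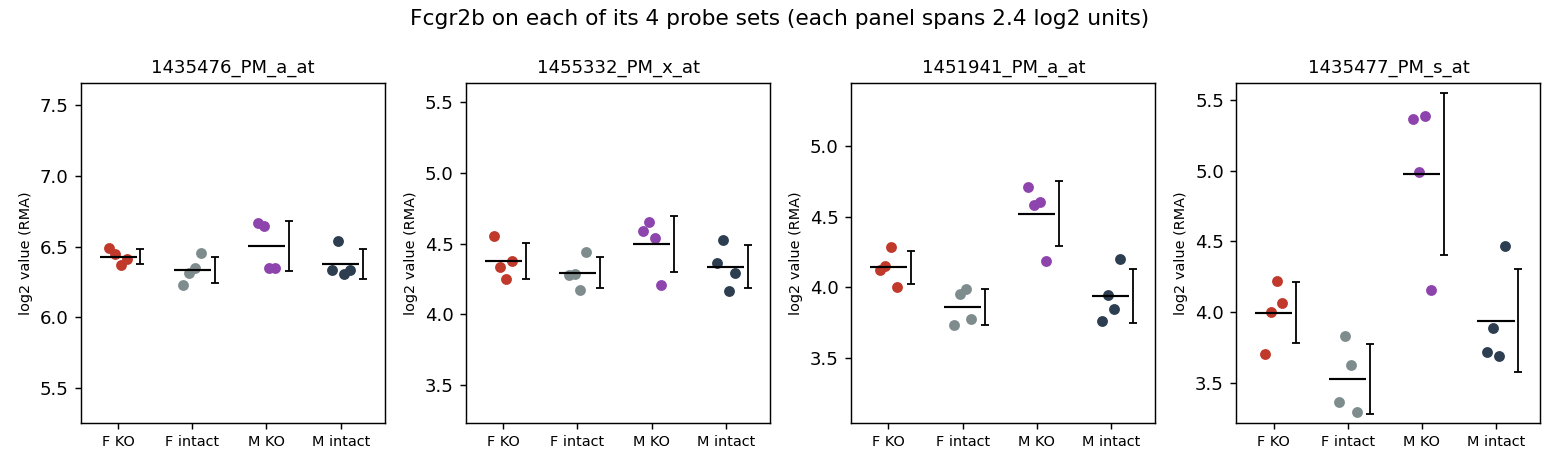
Log2 value of Fcgr2b (vertical axis) on each of its 4 probe sets in the 4 groups. Each point is an array, each horizontal line a group mean and each bar 1 SD (n = 4), and each panel spans the same number of log2 units. Male GPER KO stands above male intact on 1451941_PM_a_at (0.58) and 1435477_PM_s_at (1.04) and little on the 2 others (0.12 and 0.16).

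The effect of GPER deletion was compared between males and females directly. No member differed between the sexes after adjustment (limma, smallest adjusted p = 0.426, and 0% of all genes were called). At an unadjusted p under 0.05 the male effect was larger for 8 members (6.83% of all genes) and smaller for 0 (4.14%). The 8 were Ly86 (difference of 0.50, standard error 0.16), Csf1r (0.40), Fcgr3 (0.60), Ms4a7 (0.40), Gpnmb (0.22), Coro1a (0.49), Aif1 (0.26) and Cybb (0.40). Of 39 members 31 had a larger log2 fold change in males, as did 62.5% of all genes, and the median difference was 0.22, beside 0.04 over all genes. That members passed the test in males and not in females therefore does not show that the sexes differ.

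Among intact mice, males and females differed in no member after adjustment (limma, 0.281% of all genes were called higher in males, 0.298% lower and 0.579% in either direction). Of 39 members 29 were higher in males, where 42.2% of all genes were. At an unadjusted p under 0.05 Mrc1, Mpeg1 and Cd68 were higher in males, with log2 differences of 0.63, 0.32 and 0.26 (7.55% of all genes were higher in males). Gpnmb, Trem2 and Csf1r were lower in males by the same measure, with -0.17, -0.18 and -0.23 (9.93% of all genes). Mrc1, Mpeg1 and Clec4d had no overlap with males higher (3.05% of all genes), and Gpnmb had none with males lower (5.39%). Mpeg1 had an adjusted p of 0.124, and it was called only in the fit without male GPER KO 451.

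Further genes of macrophage pathways, none of them a member, gave few calls. Among genes of lipid-loaded or injury macrophages 12 of 14 measured were above intact in males and 10 in females, and Lgals3, which encodes the lectin galectin-3, rose in males, with 1.66 (standard error 0.28, adjusted p = 0.00953, limma). Of 12 lysosomal proteases and lysosome genes, 11 were above intact in males and 8 in females, and Ctsz, which encodes cathepsin Z, rose in males with 0.81 (adjusted p = 0.0439). Of 12 actin regulators of leukocytes, 9 were above intact in males, and Pfn1, which encodes the actin-binding profilin 1, rose over both sexes with 0.26 (adjusted p = 0.0258). No gene was called in males or females among 15 other resident macrophage genes (10 above intact in males, median 0.09), 11 complement genes (9 above, median 0.10), 13 kinases and receptors of the DAP12 and Fc gamma-chain pathway (10 above, median 0.06), 4 partners of Cybb in the oxidase (4 above, median 0.12) and 14 ligands of Csf1r and lineage factors (9 above, median 0.04).

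Most blood monocyte genes differed little in size. Of 10 measured, 9 were above intact in males and 5 in females, with medians of 0.06 and 0.01, and 0 were called. Their array means ran from 3.52 to 3.62 in male GPER KO and from 3.46 to 3.49 in male intact mice, which did not overlap. The means lay near the array medians of 3.47 to 3.51. Ccr2, the receptor that draws monocytes into tissue, had a log2 fold change of 0.03 in males and -0.04 in females, and Plac8 had 0.05 in males and 0.03 in females. Larger male values were those of S100a4, with 0.35 (adjusted p = 0.300, limma) and 0.04 in females, and Itga4, with 0.12 and -0.01 in females. Fn1 (fibronectin) had the smallest p of the list, with 0.37 in males (adjusted p = 0.210, limma), and fibroblasts make it too.

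Markers of other cells were read on the same arrays. No marker read 0 on this scale, and neutrophil S100a8 read 2.23 to 2.59 throughout. For 11 neutrophil genes the array means ran from 3.41 to 3.51 in male GPER KO and from 3.45 to 3.56 in male intact mice, with 4 of 11 above intact. For 13 T and NK cell genes the means ran from 3.57 to 3.61 in male GPER KO and from 3.53 to 3.62 in male intact mice. For 6 B cell genes they ran from 3.15 to 3.28 in male GPER KO and from 3.10 to 3.23 in male intact mice. No gene of the mast cell, dendritic cell, platelet, erythroid, lymphatic or smooth muscle lists was called. Endothelial markers moved the other way, with 0 of 17 above intact in males and 1 of 17 in females, medians of -0.33 and -0.24, and 0 called. Their array means ran from 6.28 to 6.82 in male GPER KO and 6.52 to 7.20 in male intact mice, and from 6.29 to 6.77 in female GPER KO and 6.54 to 6.90 in female intact mice. Of 12 fibroblast genes 7 were above intact in males and 9 in females, with medians of 0.14 and 0.19. Their array means read 6.01, 5.98, 6.13 and 5.53 in male GPER KO and 5.45, 5.58, 5.80 and 6.07 in male intact mice. Here 451 was lowest of its group and 453 highest of its own. Animal 451 was also the lowest male GPER KO array for the endothelial (6.28) and smooth muscle (5.23) lists. For those lists 453 was not the highest male intact array. Fibroblast means ran from 5.61 to 5.96 in female GPER KO and from 5.29 to 5.88 in female intact mice. Among these genes Pcolce, an enhancer of procollagen processing, rose in males with 0.94 (adjusted p = 0.0269, limma), and the matrix gene Fbln1 fell over both sexes, with -0.76 (adjusted p = 0.0189). The part of these cells in the myeloid differences was not tested.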

How the data were processed

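Each of 16 arrays (Affymetrix GeneAtlas MG-430 PM) has its own number in its title, read here as that of 1 mouse. The submitters' processing notes name RMA and Partek without versions. The deposited values are log2 values, which the authors made from the scanned arrays. RMA pulls array distributions together, so only relative changes are seen. Precision is limited by 4 arrays per group.

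Of 45141 probe sets, 28898 with 1 gene symbol (28689 matched by Entrez identifier to RefSeq, GRCm38.p6) gave 17097 genes. Each gene was represented by the probe set of highest mean over 16 arrays. Tests used limma 3.58.1 in R 4.3.3 on 4 group means, with no filter and Benjamini-Hochberg adjustment over all genes. On simulated data with changes of 0.5 and 1 (log2), 85% and 100% were called in the female comparison and 90% and 99% in the male one, with 10 and 9 false calls among 17097 genes. Changes were given to genes drawn at random, with independent noise at the fitted spread. Members had a larger median SD than all genes (0.23 against 0.10 in male GPER KO), so these rates need not hold for them. In the data a female difference of 0.71 for Lyz2 was not called (adjusted p = 0.173, limma).

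The members and lists were chosen with earlier results of these data known. Values on every array are given for members called in any contrast and for Lyve1, Timd4, Folr2, Cd163, Gpnmb, Clec4d, Csf1r, Adgre1 and Ptprc. From each other list up to 3 called genes per direction are named, otherwise the gene with the smallest p where one is given. Ccr2, Plac8, S100a4, Itga4, Fcgr2b and S100a8 were named outside the rule, after their values were seen. Alternatives were other summaries of probe sets, a filter at the 40 percentile on 4 arrays, quantile normalization again, median centring, array weights, 1 sex alone, trend and robust eBayes, an additive fit, each array left out and exact permutation tests.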

Additional observations from a re-analysis of the deposited data

Results flagged for a closer look

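In 6 of 84 groups of 4 values, 1 array stood apart from the other 3 by Dixon's test, and chance flags about 1 group in 20. Male GPER KO 451 read 7.87 for Lyz2 and 4.72 for Ly86, each below the other 3 male GPER KO arrays. Male intact 453 read 4.81 for Lyve1 and 2.54 for Timd4, each above the other 3 male intact arrays. Female intact 425 read 3.68 for Fcgr3, above the other 3, and female intact 422 read 2.87 for Clec4d, below the other 3. No member was set apart by a test of the difference between the sexes.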

How the results depend on the processing

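No paired analysis was possible because the animal numbers are unique and no label ties mice of different groups. Against 7 members called in males, limma called 1 with the male arrays alone and 1 to 12 with 1 array left out in turn. Over both sexes, against 6, it called 11 with array weights and 4 to 14 with 1 array left out. In females, against 0, it called 0 to 2 with 1 array left out, and an exact permutation test without adjustment passed 6. Between intact males and females, against 0, it called 0 to 1 with 1 array left out. With 1 array left out, the median log2 fold change of the members lay between 0.29 and 0.39 in males, 0.09 and 0.16 in females and 0.19 and 0.29 over both sexes. Of 1030 values of single named members under alternatives, 940 were counted as unchanged, 75 lost a call, 7 gained one and 8 changed sign, all 8 uncalled. Unchanged means the same direction and side of the threshold, except for the exact permutation test, which was counted by direction alone. Ctss, Tyrobp and Ly86, called in males by limma, did not pass that test. Gpnmb, Csf1r, Adgre1 and Itgb2 in males and Lyz2, Ctss, Mpeg1, Cd68, Mrc1 and Cd53 in females passed it without adjustment but were not called by limma. With 1 array left out, the log2 fold change of Clec4d in males lay between -0.00088 (without GPER KO 432) and 0.061, and that of Ly86 in females between -0.027 (without GPER KO 427) and 0.087. Lyve1 in females lay between -0.12 and 0.098 (above 0 without GPER KO 417, GPER KO 426 or intact 421) and was 0.020 with the mean of its probe sets. In males Lyve1 lay between -0.29 and 0.026 and Timd4 between -0.065 and 0.0043, the upper value of each without intact 453. The causes were not tested.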
